A study of Mus musculus with 14 samples.

Results

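The regions described here are stretches of mRNA 3′ UTR that were bound by the miRNA effector AGO2 in mouse macrophages and that hold a seed match to miR-221-3p and miR-222-3p. AGO2 PAR-CLIP crosslinks RNA to AGO2 in living cells after uptake of a thio-uridine, and a crosslinked uridine is read as C. The deposited tables list groups, each a run of overlapping reads given by its sequence, annotation, read number and number of T-to-C conversion events. A group was taken as a member where it was annotated to a 3′ UTR, had at least 1 conversion event, and held a 7-base match to the shared seed. That match is either to miRNA bases 2 to 8 (7mer-m8) or to bases 2 to 7 followed by an A (7mer-A1), and a match with both features is an 8mer. This rule found 583 members, 261 of them in KO and 322 in WT, among 33419 converted 3′ UTR groups (14217 in KO, 19202 in WT) and 151909 groups in all (85458 in KO, 66451 in WT). Of the groups left out by the conversion rule alone, 42 in KO and 39 in WT held a match in a 3′ UTR but had no conversion event, with medians of 16 reads in KO and 14 in WT. Just inside the rule, 4 KO members and 7 WT members had 1 to 5 events, with medians of 10.5 reads in KO and 11 in WT.

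All cells were bone marrow derived macrophages of C57BL/6 mice, grown in medium with 20% L929 supernatant, a source of the macrophage growth factor CSF1, for 6 days by the protocol and 7 days by the series design. KO cells carried ELAVL1f/f with LysM-Cre, a Cre recombinase expressed from the Lyz2 locus in myeloid cells, and WT cells carried ELAVL1f/f without Cre, so the floxed allele is common to both. ELAVL1 (HuR) is an RNA-binding protein of U-rich and AU-rich 3′ UTR elements, and the series asks how it bears on miRNA binding. There were 4 KO and 4 WT mRNA libraries, small RNA libraries of KO 3 and 4 and of WT 1 and 2, and a single AGO2 PAR-CLIP library for each genotype, so no PAR-CLIP value has a replicate. The labels do not say that libraries came from separate animals, although the series design calls the mRNA samples biological repeats. P-values therefore measure the spread between these libraries, which may be technical.

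miR-221 and miR-222 are transcribed together from the X chromosome and share a seed. They are known for silencing Cdkn1b (p27), an inhibitor of cyclin-dependent kinases, and pro-apoptotic BH3-only genes, and in macrophages for limiting inflammatory gene expression. A miRNA guides AGO2 to 3′ UTR sites that pair with its seed, and the bound mRNA is then repressed or degraded.

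The mature miRNAs, from RefSeq on GRCm38.p6, are printed 5′ to 3′ with the seed in capitals, because every member was chosen by it.
miR-221-3p: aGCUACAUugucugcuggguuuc
miR-222-3p: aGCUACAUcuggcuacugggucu
The bases that follow the seed differ between the 2 miRNAs, so seed pairing alone does not say which of them, if either, occupied a site. Which miRNA guided AGO2 to a given member was not tested.

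The sites that carry most reads, or lie in published targets, are printed from the deposited group sequences with mm9 coordinates of the printed window, strand as marked, and the seed match in capitals.
Cdkn1b 8mer, chr6:134874430-134874459 (+): ctgcctctaaaagcattggATGTAGCAttg
Cdkn1b 7mer-A1, chr6:134874511-134874540 (+): ttttatcttttactcTGTAGCAcataaacg
Adipor1 7mer-A1, chr1:136328627-136328656 (+): gccatccattttTGTAGCAcacttttcaga
Tmcc1 8mer, chr6:115971872-115971901 (-): ggatcatttttATGTAGCAtgattttcctt
Rfx7 8mer, chr9:72467723-72467752 (+): ttttataatATGTAGCAcactgtatctaaa
Ythdf3 7mer-A1, chr3:16114482-16114511 (+): gtgaaaaattatTGTAGCAaacttttaata
Psap 7mer-A1, chr10:59764579-59764608 (+): cctctcccttacTGTAGCAtttctgtcatg
Bcl2l11 8mer, chr2:127988089-127988118 (+): cagaacccagcgtATGTAGCAtttgtattg
Bmf 8mer, chr2:118354672-118354697 (-): acccagcgagATGTAGCAtttccttc
Bbc3 8mer, chr7:16902666-16902690 (+): actttttctgcaccATGTAGCAtac
Ddit4 7mer-A1, chr10:59413042-59413067 (-): cacacgcccctcagtacTGTAGCAtg
Irf2 8mer, chr8:47932744-47932773 (+): ctcATGTAGCAatcaaattatcctgtggat
Ppp2r2a 7mer-A1, chr14:67634755-67634784 (-): cttactgtggctTGTAGCAttcctcctctc
Each window is the stretch of the group around the match. At the Irf2 site the WT group has 3 bases before the match.

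The libraries as a whole set the following limits. mRNA libraries held 8160789 to 25030262 counts, small RNA libraries 6886110 to 10265453 counts, and the listed PAR-CLIP groups 6445262 reads in KO and 6287870 in WT, each group with at least 5 reads. The mRNA of the gene meant to be deleted, Elavl1, stood at 13.6, 11.5, 11.9 and 13.5 RPKM (reads per kilobase of transcript, scaled to library size) in the libraries labelled KO 1 to 4, against 11.99, 10.9, 11.5 and 11.9 RPKM in WT 1 to 4. The genotypes overlapped, with a log2 ratio of 0.13 (SE 0.13, adjusted p = 0.9999, edgeR quasi-likelihood), so the mRNA level does not part the libraries labelled KO from those labelled WT. Whether the deleted exons are missing from these transcripts cannot be read from gene-level counts. Lyz2, the locus that carries Cre, averaged 3457 RPKM in KO and 8488 RPKM in WT, a log2 ratio of -1.29 with an adjusted p of 0.9999 without and 0.000472 with the replicate number as a block (edgeR). The 8 macrophage markers found, Lyz2 among them, summed to 12685 to 16293 CPM (counts scaled to library size) in KO and 19716 to 24813 CPM in WT. A sum without Lyz2 was not made, so the lower KO sum cannot be told apart from the lower Lyz2 level. The 8 stromal markers summed to 2.00 to 64.3 CPM in KO and 3.92 to 33.4 CPM in WT, the 8 neutrophil markers to 22.3 to 55.5 and 10.2 to 31.9 CPM, the 6 endothelial markers to 27.6 to 64.7 and 20.2 to 41.2 CPM, and the 6 T and B cell markers to 0.764 to 2.49 and 0.280 to 1.37 CPM. None of these markers was at 0 in all libraries. The stromal sum was 8.46 to 64.3 CPM in libraries numbered 3 and 4 and 2.00 to 6.85 CPM in those numbered 1 and 2. The part of these markers in the results below was not tested, and in bulk RNA fewer cells of a type and less RNA per cell cannot be told apart.

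Both miRNAs were among the 35 most abundant in every small RNA library, and neither was called between KO and WT. miR-221-3p had 2648 and 3182 CPM in KO 3 and 4, against 3193 and 2846 CPM in WT 1 and 2. The KO and WT values overlapped, and the log2 ratio was -0.05 (SE 0.21, adjusted p = 0.920, edgeR). miR-222-3p had 2010 and 2252 CPM in KO and 2157 and 2485 CPM in WT, a log2 ratio of -0.12 (SE 0.21, adjusted p = 0.895, edgeR). The passenger strands were lower, miR-221-5p at 327 and 351 CPM in KO against 487 and 427 CPM in WT, with a log2 ratio of -0.43 (SE 0.24, adjusted p = 0.463, edgeR). miR-222-5p had 335 and 345 CPM in KO and 288 and 356 CPM in WT (log2 ratio 0.08, SE 0.25, adjusted p = 0.912, edgeR). Of the 369 miRNAs tested 22 were called (5.96%), and none of these 4 was among them. A further RefSeq miRNA with the same seed, miR-1928, has no entry in the small RNA tables. The KO and WT small RNA libraries share no number, so the genotype and the number set cannot be told apart for these values.

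AGO2 itself was loaded with both miRNAs in both genotypes. The group over the mature miR-221-3p held 72300 reads in KO, 3.20% of reads in miRNA groups (95% Clopper-Pearson interval 3.17 to 3.22), and 103697 reads in WT, 4.30% (4.28 to 4.33). The group over miR-222-3p held 92590 reads in KO, 4.09% (4.07 to 4.12), and 88876 reads in WT, 3.69% (3.66 to 3.71). By reads miR-221-3p ranked 10th of 340 miRNA groups in KO and 5th of 327 in WT, and miR-222-3p 8th in KO and 7th in WT. miR-221-3p thus took the smaller share of the pair in KO and the larger in WT. These intervals, here and below, cover counting error only. The passenger strands had 169 (miR-221-5p) and 187 (miR-222-5p) reads in KO and 199 and 281 reads in WT. Conversion events per 100 reads were 26.4 for miR-221-3p and 28.4 for miR-222-3p in KO, against 40.5 and 41.4 in WT. Over all miRNA groups the rates were 9.39 in KO and 12.4 in WT, and over all groups 30.3 in KO and 39.2 in WT, so the lower KO rate was not limited to these 2 miRNAs.

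Members made up a similar share of the converted 3′ UTR groups in both genotypes. The share was 1.84% in KO (1.62 to 2.07) and 1.68% in WT (1.5 to 1.87), and the intervals overlap. Their reads were 44393 in KO, 3.06% of the reads in converted 3′ UTR groups, and 52378 in WT, 3.05%. A single Psap group gave 6222 of the KO reads (14.02%), and its WT counterpart is annotated as coding and so is not counted. Without it the KO share of reads was 2.64% (2.62 to 2.67), below the WT share. With or without it, members held a larger share of reads than of groups. An 8mer stood in 0.429% of converted 3′ UTR groups in KO (0.328 to 0.551) and 0.411% in WT (0.326 to 0.512). Unconverted 3′ UTR groups held a match in 1.31% of cases in KO (0.947 to 1.77) and 1.34% in WT (0.956 to 1.83), and converted coding groups in 1.14% (0.902 to 1.43) and 0.935% (0.740 to 1.17). Converted intronic groups held one in 1.65% in KO (1.26 to 2.12) and 1.95% in WT (1.51 to 2.48), as often as 3′ UTR groups within the intervals. The lowest shares were in unconverted coding and unconverted intergenic groups. Unconverted coding groups held one in 0.497% in KO and 0.457% in WT, and unconverted intergenic groups in 0.503% in KO (0.431 to 0.585) and 0.631% in WT (0.514 to 0.766).

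**Figure D1:**
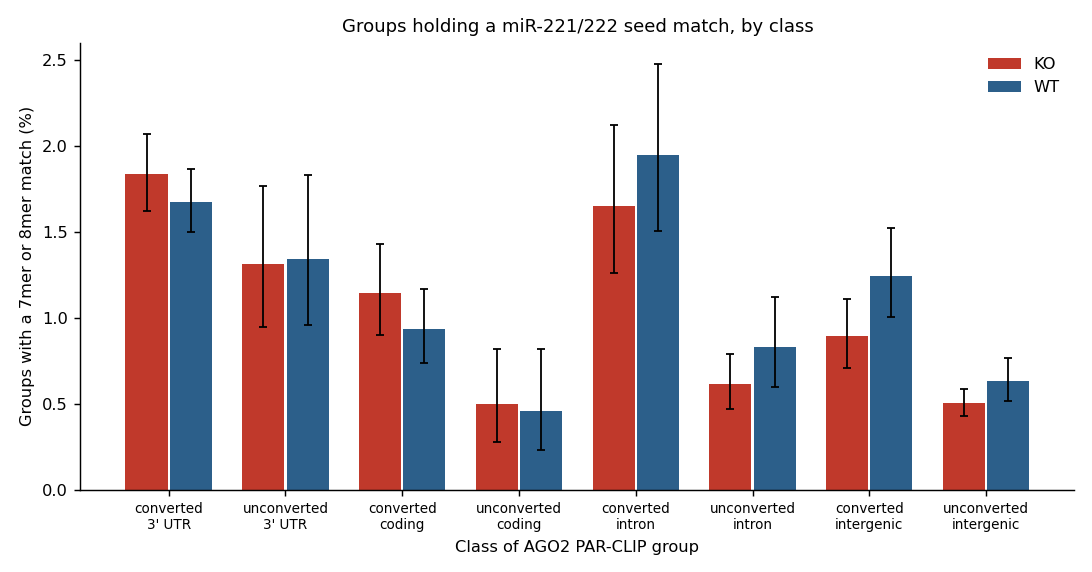
Share of AGO2 PAR-CLIP groups that hold a 7mer or 8mer match to the miR-221 and miR-222 seed, in percent, by annotation class and presence of conversions, in KO (red) and WT (blue). Bars are single libraries and whiskers are 95% Clopper-Pearson intervals. Shares are per group and not adjusted for the differing group lengths of the classes. Converted 3′ UTR groups stood at 1.84% in KO and 1.68% in WT, with intervals that overlap.

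Set beside 11 other miRNA families known in macrophages, counted in the same way, miR-221 and miR-222 had a middle place by groups, and by reads a place that in KO rested on the Psap group. By number of converted 3′ UTR groups it ranked 5th of 12 in KO and 6th in WT, and by reads 3rd in KO and 7th in WT, or 6th in KO without the Psap group. miR-27 was first in every ranking, with a match in 3.59% of KO and 3.27% of WT groups and 13.3% of KO and 17.5% of WT reads. The miR-29 family, second by reads in both, had 3.36% of reads in KO and 5.35% in WT. The shares of reads of 10 of the 11 other families were lower in KO, miR-21 being the exception, and so was that of miR-221 and miR-222 once the Psap group was left out (2.64% in KO, 3.05% in WT). A match to another of these families stood in 15 KO members (5.75%) and 15 WT members (4.66%), so nearly all members hold the miR-221 and miR-222 match alone among the 12.

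By kind of match, 61 KO members were 8mers, 77 7mer-m8 and 123 7mer-A1, against 79, 97 and 146 in WT. The 8mers were 23.4% of KO and 24.5% of WT members and held 35.8% of member reads in KO and 39.6% in WT, much of it in Cdkn1b. Median reads per group were 42 (8mer), 47 (7mer-m8) and 37 (7mer-A1) in KO and 39, 35 and 35 in WT. The median member had 13 bases before the match and 7 after it in both genotypes. The match lay closer to the 3′ end of the group in 71.1% of KO and 70.6% of WT sites. For the other families the share ran from 58.0% (miR-17) to 78.5% (miR-24) in KO and from 61.6% (miR-17) to 77.6% (miR-15/16) in WT, so this placing is not particular to miR-221 and miR-222. The base of the mRNA opposite miRNA base 9, the first after the seed, was present in 136 KO and 175 WT sites that matched base 8. It would pair with miR-221-3p in 31 and with miR-222-3p in 15 of these KO sites, against 37 and 24 of these WT sites. The frequency of each base in other groups was not counted, so these numbers do not show a preference for either miRNA.

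Members were larger groups than other converted 3′ UTR groups. Median reads were 42 against 21 for the other groups in KO, and 36 against 19 in WT. For the other miRNA families compared, median reads ran from 28 (miR-223) to 53 (miR-27) in KO and from 28 (miR-223) to 48 (miR-27) in WT. The larger size is thus not particular to miR-221 and miR-222. Groups of at least 100 reads were 24.9% of members and 9.82% of the others in KO, and 26.7% and 9.86% in WT. The median length was 27 bases for members and 25 for the others in both genotypes. Conversions at a single location were seen in 65.1% of members and 81.7% of the others in KO, and in 58.4% and 77.6% in WT. Pooled over reads, members had 87.9 conversion events per 100 reads in KO and 89.1 in WT. The other converted 3′ UTR groups had 66.7 in KO and 80.9 in WT. Pooled rates weigh the largest groups most, and the largest of the others held 365850 of their 1405258 reads in KO, where none had above 24403 events. Per group the median was 100 events per 100 reads in both sets and genotypes. The lower quartile was 90.2 for members and 100 for the others in KO, and 84.7 and 100 in WT. Members were thus not more often converted per group. A run of 5 uridines, a simple mark of U-rich sequence, stood in 13.8% of members and 10.3% of the others in KO, and in 13.7% and 11.2% in WT. Member reads were concentrated, and the 10 largest groups held 49.3% of them in KO (43.0% without Psap) and 43.8% in WT.

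Most members recurred in the other genotype, and every one with at least 100 reads did. Of 261 KO members 207 (79.3%, 73.9 to 84.1) overlapped a WT group on the same strand by at least 1 base. Of these, 189 overlapped a WT member, 8 a converted 3′ UTR group without the match, and 10 another kind of group. Of 322 WT members 214 (66.5%, 61.0 to 71.6) overlapped a KO group, 189 of them a KO member, 7 a converted 3′ UTR group without the match, and 18 another kind of group. Other converted 3′ UTR groups overlapped in 56.2% of cases in KO (55.4 to 57.0) and 43.0% in WT (42.3 to 43.7). Groups with a match to the other miRNA families overlapped in 62.5% (miR-21) to 81.8% (miR-27) of cases in KO. In WT the families ran from 53.7% (miR-21) to 71.1% (miR-29). Overlap above that of the other groups is thus not particular to miR-221 and miR-222. Group size moved with overlap: among members of 5 to 19, 20 to 99 and at least 100 reads, 56.3%, 81.6% and 100% of KO members overlapped, and 31.5%, 68.8% and 100% of WT members. The other converted 3′ UTR groups reached 37.9%, 65.1% and 99.9% in KO and 23.7%, 55.2% and 98.0% in WT in the same classes. Within the classes of 5 to 19 and 20 to 99 reads the KO members therefore overlapped more often, with intervals apart, and so did WT members of 20 to 99 reads, while the intervals met for WT members of 5 to 19 reads.

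**Figure D2:**
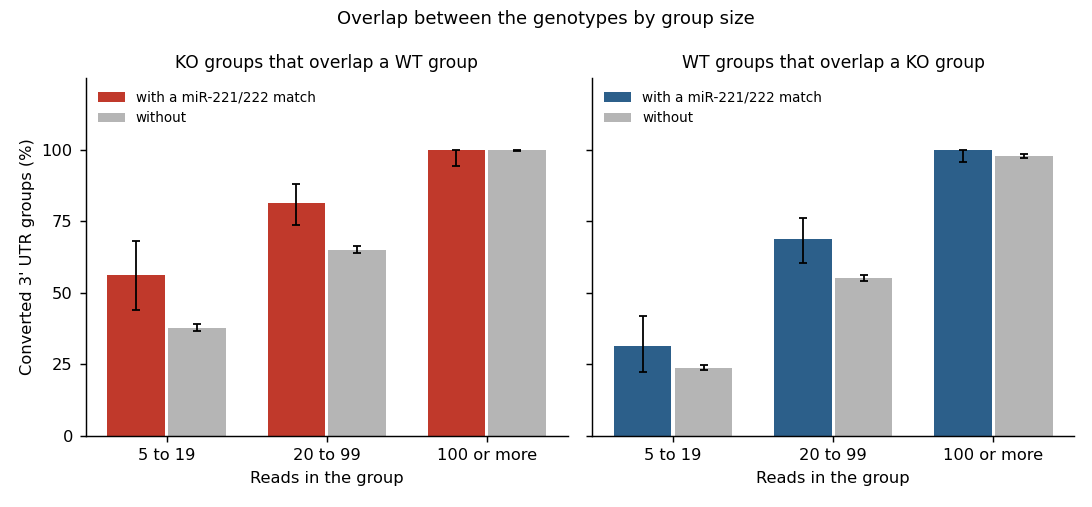
Share of converted 3′ UTR groups that overlap a group of the other genotype, in percent, by reads in the group, for groups with a miR-221 and miR-222 match (coloured) and without (grey), KO at left and WT at right. Whiskers are 95% Clopper-Pearson intervals from 1 library per genotype; every member of at least 100 reads overlapped, against 56.3% of KO and 31.5% of WT members of 5 to 19 reads.

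The 54 KO members with no WT group at their place had a median of 18.5 and at most 95 reads, and the 108 such WT members a median of 17.5 and at most 90 reads. The KO members with the most reads and no WT group were in Bmf (95 reads), Gabpb2, which encodes a subunit of the transcription factor GABP (60 reads in 2 groups; WT had a member of 8 reads elsewhere in this gene), Golga1, a golgin of the trans-Golgi (49 reads), and Lsm14a, a P-body protein (45 reads). The WT members with the most reads and no KO group were in Gosr2, a Golgi SNARE (90 reads), Slc38a1, an amino acid transporter (87 reads), Gnb1, a G protein beta subunit (84 reads), and B3galtl, a glucosyltransferase now named B3glct (71 reads). All of these are small beside the leading groups. Apart from Bmf, given below, and B3galtl, the mRNA log2 ratios of these genes ran from -0.17 (Gnb1, SE 0.32) to 0.09 (Lsm14a, SE 0.18), none called in edgeR. With the replicate block Gnb1 was at -0.21 (SE 0.088, adjusted p = 0.480, edgeR) and Lsm14a at 0.08 (SE 0.075, adjusted p = 0.748, edgeR). With 1 library each, absence from the other list cannot be told apart from a site that was too shallow to be listed.

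Counted as sites, there were 263 in KO and 323 in WT, of which 190 were the same position, 72.2% of KO and 58.8% of WT sites. Counted as genes, 250 had a member in KO and 307 in WT, 184 of them in both, which is 73.6% of the KO and 59.9% of the WT genes. In all 373 genes had a member, 66 of them in KO alone and 123 in WT alone. The same split over all genes with a converted 3′ UTR group was not counted, and WT lists more such groups (19202 against 14217 in KO). A gene with a member in 1 genotype alone can still have a group there in the other, as Irf2 does below. The most members in 1 gene were 3, in the gene listed as 2510009E07Rik, in KO. For the median gene, members held 41.2% of its converted 3′ UTR reads in KO and 31.4% in WT, and for 41 KO and 30 WT genes members held all of them.

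Across the 189 pairs of overlapping members, reads in KO tracked reads in WT (Pearson's r = 0.867 on log2 reads, Spearman's rho = 0.826, n = 189 pairs from the same 2 libraries, as a description). The KO over WT ratio of reads scaled to all reads in listed groups had a median log2 of -0.45, with 58 pairs higher and 131 lower in KO. Over the 7562 other overlapping pairs of converted 3′ UTR groups the median was -0.27, with 3029 higher and 4533 lower. Scaled instead on the reads in converted 3′ UTR groups, the medians were -0.17 for members and 0.02 for the other pairs, so the level, and not the distance between the medians, depends on the scaling. Ratios above 2-fold were found in 18 member pairs (9.52%), against 13.6% of the other pairs, and ratios below -1 on the log2 scale in 50 member pairs (26.5%), against 24.3% of the other pairs. Scaled on converted 3′ UTR reads, 25 member pairs lay above 2-fold (13.2%, other pairs 19.5%) and 34 below (17.99%, other pairs 17.0%), so the split between higher and lower depends on the scaling. With 1 library per genotype these ratios have no replicate check.

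**Figure D3:**
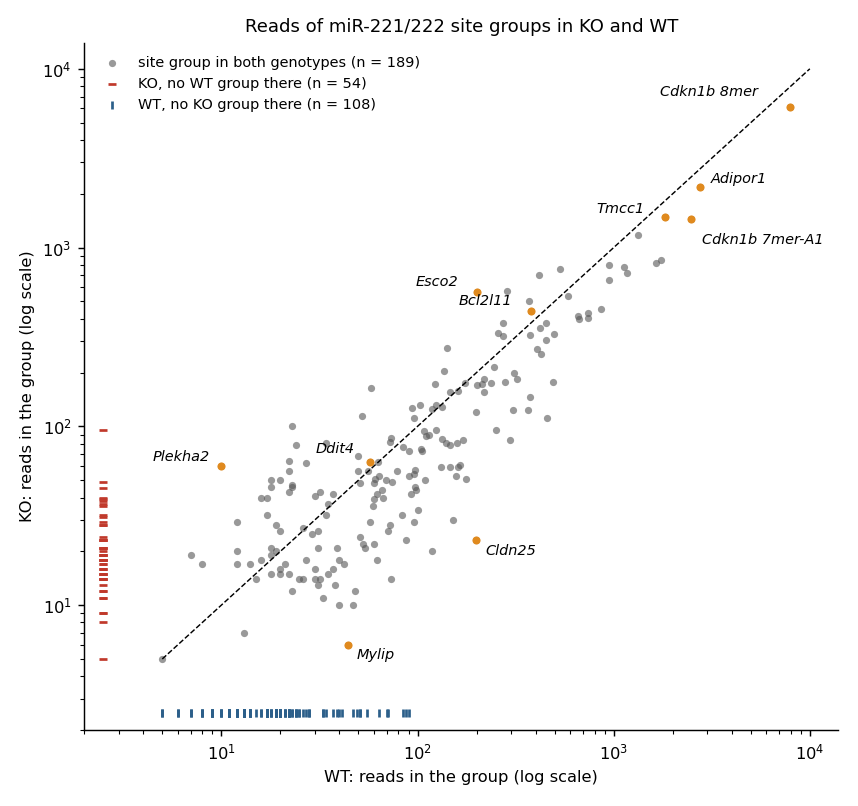
Reads of miR-221 and miR-222 site groups in KO (vertical) and WT (horizontal), both on log scales, 1 point per overlapping pair (n = 189), with the dashed line at equal reads; orange points are named. Ticks beside the axes give the 54 KO and 108 WT members with no group in the other genotype; these had at most 95 reads in KO and 90 in WT, while Cdkn1b had 6111 reads in KO and 7948 in WT at its 8mer.

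Cdkn1b, the CDK inhibitor p27 and the best known target of the pair, led all genes. Its 8mer group held 6111 reads in KO and 7948 in WT, and its 7mer-A1 group 1447 reads in KO and 2471 in WT. The 7mer-A1 match lies 76 bases further on, counted between the starts of the stretches that match miRNA bases 2 to 7. The 8mer group had a log2 ratio of -0.41 on listed reads, close to the median of all member pairs. Together these 2 groups held 98.9% of the converted 3′ UTR reads of Cdkn1b in KO and 98.6% in WT. Reads in the listed converted groups of this 3′ UTR thus lay almost wholly at the 2 sites that match miR-221 and miR-222. Cdkn1b mRNA (ENSMUSG00000003031) was 7.88, 7.01, 5.31 and 5.40 RPKM in KO 1 to 4 and 8.42, 6.92, 5.37 and 4.81 RPKM in WT 1 to 4. Libraries 1 and 2 were higher than 3 and 4 in both genotypes, and KO and WT overlapped. The log2 ratio was 0.01 (SE 0.23, adjusted p = 0.9999, edgeR). This mRNA lay at the 54.0th percentile of all genes tested by mean RPKM, so Cdkn1b mRNA was not unusually abundant. Of 7 CDK inhibitor genes listed, 6 were tested and Cdkn1b alone had a member. Of these 6, 4 had a higher and 2 a lower mean in KO, with a median log2 ratio of 0.05, and 0 passed the adjusted threshold in edgeR.

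The BH3-only genes, whose products trigger apoptosis by binding BCL2 relatives, gave 3 members, each with an 8mer. Bcl2l11 (BIM) had a group of 443 reads in KO and 380 in WT. That group was 24.2% of its converted 3′ UTR reads in KO and 15.2% in WT, the rest lying in 22 further groups in KO and 23 in WT without this match. Bcl2l11 mRNA was 3.71, 5.33, 5.86 and 5.88 RPKM in KO and 3.32, 5.62, 4.61 and 5.37 RPKM in WT, overlapping, with a log2 ratio of 0.13 (SE 0.21, adjusted p = 0.9999, edgeR). Bmf had its member in KO alone (95 reads, 19 conversion events) and 1.01, 2.05, 1.96 and 2.09 RPKM in KO against 1.25, 1.94, 1.96 and 1.83 RPKM in WT. Bbc3 (PUMA) had its member in WT alone (24 reads) and 31.6, 21.6, 8.89 and 9.37 RPKM in KO against 20.4, 21.8, 6.90 and 8.56 RPKM in WT. For Bbc3, too, libraries 1 and 2 were above 3 and 4 in both genotypes, and the log2 ratio of 0.31 had an SE of 0.53. With the replicate block the Bbc3 ratio was 0.28 (SE 0.117, adjusted p = 0.489, edgeR). Of 8 BH3-only genes listed 7 were tested, 6 with a higher and 1 with a lower mean in KO (median log2 ratio 0.13), and 0 passed the adjusted threshold in edgeR.

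The other published targets with a member act in growth signalling, metabolism and interferon responses. Ddit4 (REDD1), an inhibitor of the growth kinase complex mTORC1, had a group of 63 reads in KO and 57 in WT and 8.96, 5.95, 3.50 and 4.34 RPKM in KO against 6.01, 5.07, 2.89 and 4.04 RPKM in WT. Each KO library was above the WT library of its number, the ranges overlapped, and the log2 ratio was 0.34 (SE 0.35, adjusted p = 0.9999, edgeR). With the replicate block the Ddit4 ratio was 0.30 (SE 0.133, adjusted p = 0.527, edgeR). How many of all genes lay in 1 direction within each number was not counted, so such agreement, here and below, has no background. Adipor1, a receptor for the hormone adiponectin, had the largest 7mer-A1 group found in both genotypes, with 2192 reads in KO and 2753 in WT, 99.4% and 98.5% of its converted 3′ UTR reads. Its mRNA was 38.5, 56.7, 43.5 and 45.0 RPKM in KO and 37.2, 53.8, 34.6 and 38.8 RPKM in WT, again higher in KO within each number and overlapping, with a log2 ratio of 0.16 (SE 0.20, adjusted p = 0.9999, edgeR). With the replicate block the Adipor1 ratio was 0.17 (SE 0.077, adjusted p = 0.525, edgeR).

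Irf2, a transcription factor that tempers interferon responses, and Ppp2r2a, a regulatory subunit of the phosphatase PP2A, show how the rule treats group ends. The Irf2 member was found in WT alone, with 660 reads, but a KO group of 440 reads lay at the same place and began at position 47932753, inside the match, which spans 47932747 to 47932754. It therefore fell outside the rule although reads were listed there. Ppp2r2a had a member of 44 reads in KO, and the WT group there (11 reads, 67634745 to 67634766 on the minus strand) began at the last base of the match, which spans 67634766 to 67634772. Irf2 mRNA averaged 30.1 ± 2.14 RPKM in KO and 28.6 ± 3.42 RPKM in WT (SD, n = 4 each). Ppp2r2a averaged 16.02 ± 2.68 RPKM in KO and 17.0 ± 3.77 RPKM in WT (SD, n = 4 each). Both pairs of means differed by less than the spread between libraries.

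**Figure D4:**
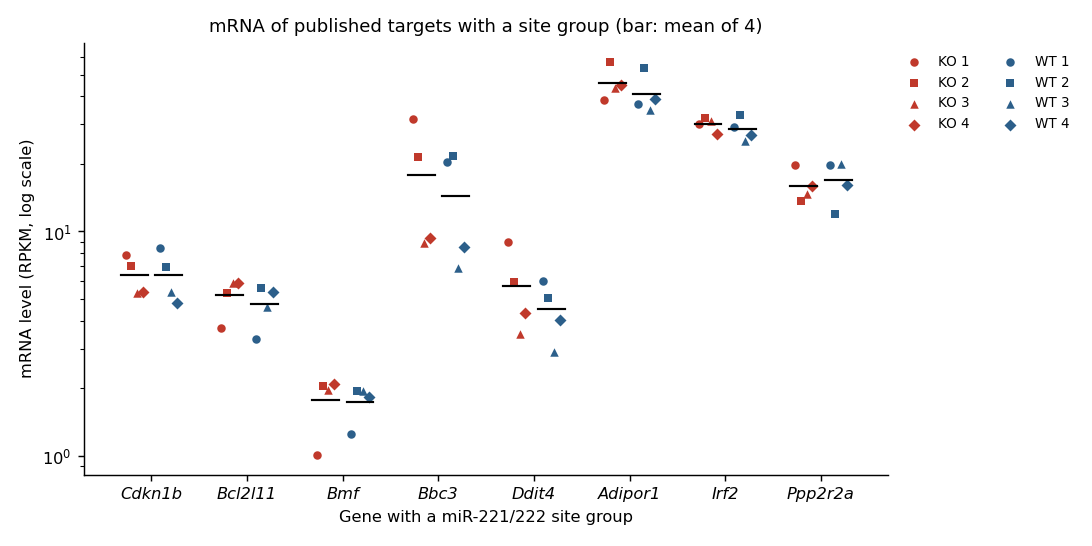
mRNA levels (RPKM, log scale) of the 8 published miR-221 and miR-222 targets with a site group, 1 point per library with its number as the symbol, KO in red at left and WT in blue at right of each gene, black bars at the means of 4. KO and WT overlap for each gene; for Cdkn1b the means were 6.399 RPKM in KO and 6.38 RPKM in WT.

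Of 26 published targets listed, 8 had a member and 21 had some converted 3′ UTR group. Of 24 tested, 20 had a higher mean in KO and 4 a lower one, with a median log2 ratio of 0.07, against 6949 higher and 7070 lower over all 14019 genes. In edgeR 0 of the 24 passed the adjusted threshold and 0 had an unadjusted p under 0.05. With the replicate block 6 had an unadjusted p under 0.05 (edgeR), against 9.42% of all genes. The lean of the listed targets to higher values was not tested, and it was not confined to genes with a member. Cdkn1c and Socs1, with no converted 3′ UTR group, had log2 ratios of 0.43 (SE 0.16) and 0.33 (SE 0.14) with the block. Of 18 subunits of the BAF chromatin remodeller, a complex to which these miRNAs have been linked in macrophages, 14 had a converted 3′ UTR group but 0 had a member. Their mRNAs split into 10 higher and 8 lower, with a median log2 ratio of 0.01 and 0 calls in edgeR.

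The remaining leading groups lie in genes of varied function. Psap, which encodes the lysosomal protein prosaposin and was singled out after its values were seen, had the largest KO member (6222 reads). At that place WT had a single 215-base group of 11233 reads, annotated as coding, so it did not count as a member. The KO and WT read numbers cannot be compared there because the groups differ in extent. Tmcc1, an ER membrane protein, had 1486 reads in KO and 1836 in WT, and Rfx7, a transcription factor of the RFX family, 1179 and 1337. Ythdf3, a reader of the mRNA mark m6A, had 855 reads in KO and 1738 in WT. Isca2, which assembles iron-sulfur clusters in mitochondria, had 758 reads in KO and 533 in WT and was the gene with more reads in KO among the 12 with most reads. The groups in 2510009E07Rik, 1810013L24Rik, Lhfpl2, Fry, Dnajb14 and Ahnak had 452 to 931 reads per gene in KO and 859 to 1661 in WT, each lower in KO.

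The mRNAs of these leading genes had log2 ratios from -0.12 (Fry, SE 0.23) to 0.18 (Isca2, SE 0.16), each with an adjusted p of 0.9999 in edgeR. Isca2 was 18.1, 21.8, 22.4 and 21.9 RPKM in KO and 17.6, 16.5, 19.1 and 21.4 RPKM in WT, higher in KO within each number, with overlapping ranges. Tmcc1 was 3.36, 4.60, 4.54 and 4.46 RPKM in KO and 3.08, 5.21, 4.59 and 4.65 RPKM in WT (log2 ratio -0.05). Ythdf3 and Rfx7 had log2 ratios of -0.03 (SE 0.23) and -0.01 (SE 0.20). Ahnak, a giant scaffold protein, was 4.60 to 4.62 RPKM in KO 1 and 2 and 21.2 to 24.4 RPKM in KO 3 and 4, against 5.35 to 5.89 RPKM in WT 1 and 2 and 19.5 to 20.2 RPKM in WT 3 and 4. The library number thus moved with Ahnak far more than the genotype did.

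These leading genes spanned a wide range of mRNA level. Fry, a large protein tied to microtubules, had 0.356 to 0.608 RPKM in KO and 0.439 to 0.631 RPKM in WT, at the 10.6th percentile of genes tested, while its group held 725 reads in KO and 1168 in WT. Tmcc1 (44.7th percentile) and Rfx7 (45.2nd) were near the middle, and Psap, with a mean of 3088 RPKM over all libraries, was near the top (99.9th). Over genes with a member, log2 reads in members and log2 mRNA level had a Pearson's r of 0.11 in KO (n = 245 genes) and 0.09 in WT (n = 297 genes), with Spearman's rho of 0.05 and 0.09, as a description across genes of the same libraries.

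The pairs with the widest read ratios are named here after their values were seen, and most are small groups. The group in Plekha2, an adaptor that binds phosphoinositides, had 60 reads in KO and 10 in WT, a log2 ratio of 2.55. The second 8mer in 2510009E07Rik had 101 reads in KO and 23 in WT (log2 ratio 2.10). The group in Tapbp (tapasin), which loads peptides onto MHC class I, had 79 reads in KO and 24 in WT (log2 ratio 1.68). Among larger groups, that in Esco2, a cohesin acetyltransferase, had 566 reads in KO and 200 in WT (log2 ratio 1.47). In the other direction stood Cldn25, listed now as Cldnd1, with 23 reads in KO and 199 in WT (log2 ratio -3.15). Mylip, a ubiquitin ligase of the LDL receptor, had 6 reads in KO and 44 in WT (log2 ratio -2.91), and Ccm2, a scaffold of endothelial junction signalling, 20 reads in KO and 119 in WT (log2 ratio -2.61).

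No mRNA of a gene with a member was called between KO and WT in edgeR, and the median ratio was close to that of other genes. Of 373 gene names 365 were matched to the mRNA table, 19 of them through an older name, and 362 passed the filter on low counts. No member gene was called in edgeR (0 of 362), against 0 of all 14019 genes (0.0%), and none with the replicate block, against 5 genes (0.0357%). At an unadjusted p under 0.05 stood 1 member gene (0.276%), against 0.578% of all genes, and with the block 29 (8.01%), of which 8 were higher and 21 lower, against 9.42% of all genes. Both shares, over both directions together, are under the background. With the block, all genes split into 687 higher and 634 lower at this threshold. The lean of the members to lower values was not tested. With DESeq2 and the block 2 member genes were called, Dram1 and Ralgapa2, against 0.585% of all genes. The median log2 ratio of member genes was -0.03, with 158 higher and 204 lower. It was -0.01 for the 5809 other genes with a converted 3′ UTR group and -0.002 for all genes tested, of which 6949 were higher and 7070 lower. Genes with a member in both genotypes (n = 180), in KO alone (n = 65) and in WT alone (n = 117) had medians of -0.03, -0.01 and -0.04. Genes with an 8mer (n = 91) had a median of -0.03, as had those with a 7mer alone (n = 271).

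**Figure D5:**
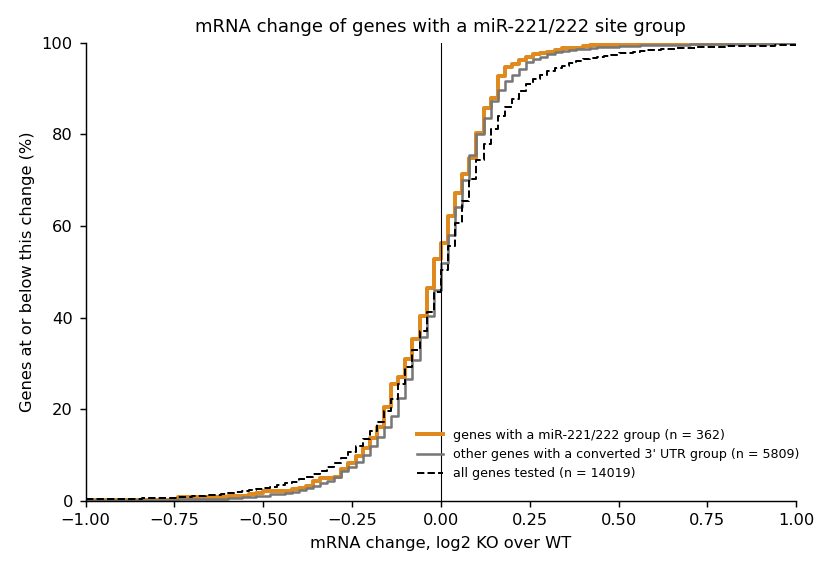
Cumulative share of genes (percent) by mRNA change (log2 KO over WT, edgeR) for 362 genes with a miR-221 and miR-222 site group (orange), 5809 other genes with a converted 3′ UTR group (grey) and all 14019 genes tested (dashed). The curves lie close together, with a median of -0.03 for genes with a site group and -0.01 for the other genes with a converted group.

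The level of member genes was moderate. Their median was 6.98 RPKM (quartiles 3.22 and 17.9), against 7.74 RPKM for the other genes with a converted 3′ UTR group and 5.43 RPKM for all genes tested. The 3 member genes under the filter were Pcdhb17, Six4 and Tnfsf8. The KO over WT read ratio of a gene's largest pair did not track its mRNA ratio (Pearson's r = 0.01, Spearman's rho = 0.07, n = 177 genes, as a description).

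Among member genes with at least 1 RPKM, the widest mRNA differences were modest. Dram1, a lysosomal protein that p53 induces, was 24.3, 20.8, 18.7 and 20.4 RPKM in KO against 34.5, 27.1, 26.0 and 25.9 RPKM in WT. All KO libraries lay below all WT libraries. On TMM-scaled counts KO and WT libraries did not overlap for 2 member genes, Dram1 and Adcy7 (0.552%), against 0.785% of all genes, with 0.435% in the direction of Dram1. Its log2 ratio was -0.43 (SE 0.16), with an adjusted p of 0.9999 in edgeR, 0.0850 with the block, and 0.00410 in DESeq2 with the block. Its group had 20 reads in KO and 12 in WT. Ralgapa2, a subunit of the GTPase-activating complex for Ral proteins, was 1.03, 1.095, 1.63 and 1.802 RPKM in KO against 1.19, 1.48, 2.77 and 2.70 RPKM in WT. It was lower in KO within each number, though the ranges overlapped, with a log2 ratio of -0.55 (SE 0.30) and adjusted p of 0.9999, 0.126 with the block and 0.00851 in DESeq2 with the block.

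Adcy7, an adenylyl cyclase, was the member gene with all KO libraries above all WT libraries, at 83.0 to 92.6 RPKM in KO against 77.9 to 85.4 RPKM in WT on the deposited scale, where the ranges meet. The separation held on TMM-scaled counts, in a direction found for 0.35% of all genes, with a log2 ratio of 0.11 (SE 0.13). Stap1, a signalling adaptor, was 8.63, 9.04, 35.0 and 42.8 RPKM in KO against 11.6, 10.6, 62.2 and 51.2 RPKM in WT, lower in KO within each number. Its log2 ratio was -0.51 (SE 0.71), and with the replicate block -0.45 (SE 0.11, adjusted p = 0.209, edgeR). B3galtl had a log2 ratio of -0.41 (SE 0.27). Ubl4 (Ubl4a), which helps to insert membrane proteins into the ER, and Arrdc3, an arrestin-like adaptor, had log2 ratios of 0.40 (SE 0.32) and 0.32 (SE 0.38). Ubl4 was higher in KO within each number, with a log2 ratio of 0.42 under the block (SE 0.115, adjusted p = 0.264, edgeR). Stap1, B3galtl, Ubl4 and Arrdc3 each had an adjusted p of 0.9999 in edgeR without the block. The sole member gene beyond 2-fold was Zfp618, at 0.0241 to 0.0705 RPKM in KO and 0.0359 to 0.170 RPKM in WT, very low levels, with a log2 ratio of -1.04 (SE 0.52).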

How the data were processed

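The authors deposited gene read counts and RPKM values for mRNA, read counts per mature miRNA, and AGO2 PAR-CLIP groups with read and conversion counts, per the file headers. Per the submitters' processing notes, CASAVA 1.8.2, Bowtie 0.12.7 and mm9 were involved. Neither the gene counter, its use of strand nor the program behind the groups is given in the sources used here. The deposited RPKM values served for levels. PAR-CLIP coordinates are as deposited, on mm9, and whether they count from 0 or 1 is not settled; end minus start plus 1 equals the length. For the small RNA of KO 4 the header writes KO 4 over counts but KO 2 over fractions, and the counts were used.

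Counts were tested with edgeR 4.0.16 in R 4.3.3 (quasi-likelihood, TMM, filterByExpr, genotype alone, Benjamini-Hochberg, threshold 0.05), with DESeq2 1.42.0 as an alternative, and tested on simulated data. The SE is the log2 ratio divided by the root of the F statistic. Same-numbered KO and WT mRNA libraries deviated together from their group means (correlations 0.770, 0.810, 0.745 and 0.801, above 0.1), so the number was also fitted as a block. Across numbers, KO 1 with WT 2 and KO 2 with WT 1 were lower (0.344 and 0.241). KO 3 with WT 4 and KO 4 with WT 3 were as high as the same numbers (0.832 and 0.764). For numbers 3 and 4, pairs by number cannot be told apart from a shared set. Overlaps used bedtools 2.31.1, same strand, at least 1 base. Python 3.11.15, pandas 2.3.3 and scipy 1.17.1 were used. Gene names were matched through Ensembl and RefSeq tables. Shares have 95% Clopper-Pearson intervals.

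Named genes were the 12 with most reads among genes with members in both genotypes, the 4 with most reads in members without overlap in each genotype, the published targets with a member, member genes called, and the 4 largest changes each way at 1 RPKM or more; exceptions are marked. The members, the gene lists and this rule were chosen with earlier results of these data known.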

Additional observations from a re-analysis of the deposited data

Results flagged for a closer look

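Among 64 groups of 4 libraries examined (the named genes, Elavl1 and Lyz2, each in KO and in WT), 4 had a library far from the other 3, where about 1 in 20 is marked by chance. In KO 1, Tmcc1 was 3.36 RPKM against 4.46 to 4.60 in the other KO libraries, Isca2 was 18.1 RPKM against 21.8 to 22.4, and Bmf was 1.01 RPKM against 1.96 to 2.09. In WT 1, Dram1 was 34.5 RPKM against 25.9 to 27.1 in the other WT libraries. KO 1 was the shallowest mRNA library, with 8160789 counts, and its part in these values was not tested.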

How the results depend on the processing

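No member gene was called in edgeR under any alternative, and DESeq2 with the replicate block (chosen after seeing the data) called 2, Dram1 and Ralgapa2. The block changed no other call and left the median log2 ratio of member genes at -0.02; no block could be fitted for the small RNA, where KO and WT share no number. The share of converted 3′ UTR groups with a match was 0.429% in KO and 0.411% in WT for 8mers alone, and 2.42% in KO and 2.49% in WT among groups of at least 20 reads. Overlap was 87.9% in KO and 80.4% in WT at 20 reads or more, and 60.9% in WT against converted 3′ UTR groups alone. Members held 2.64% of KO reads without the Psap group (chosen after seeing the data). The median pair ratio was -0.17 when scaled on converted 3′ UTR reads. Leaving out 1 library, or with the block 1 number, gave medians from -0.10 to 0.03 and 0 calls; miR-221-3p ran from -0.17 to 0.066 and miR-222-3p from -0.22 to -0.01. Of 30 named genes, 20 changed sign in some alternative, each with a ratio smaller than its SE in edgeR, and the cause was not tested.

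With numbers 1 and 2 alone the log2 ratio was -0.033 for Cdkn1b, 0.031 for Ythdf3, -0.022 for 2510009E07Rik, 0.13 for Rfx7, 0.067 for Lhfpl2, -0.28 for Ahnak, -0.038 for Bmf, -0.015 for Gosr2, -0.11 for Slc38a1 and 0.095 for Ppp2r2a. With numbers 3 and 4 alone it was 0.0039 for Fry and -0.033 for 1810013L24Rik. With the block it was 0.0014 for Rfx7 and -0.035 for Ahnak, in DESeq2 with the block 0.0030 for Rfx7 and -0.036 for Ahnak, and with the number set as a block -0.038 for Ahnak and -0.00044 for Slc38a1.

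Leaving out 1 library or number, the log2 ratio ran from -0.12 to 0.17 for Cdkn1b, -0.18 to 0.063 for Tmcc1, -0.19 to 0.14 for Ythdf3, -0.10 to 0.20 for 2510009E07Rik, -0.15 to 0.14 for Rfx7, -0.35 to 0.21 for Lhfpl2, -0.011 to 0.24 for Dnajb14, -0.13 to 0.18 for 1810013L24Rik, -0.32 to 0.41 for Ahnak, -0.0022 to 0.25 for Bcl2l11, -0.10 to 0.21 for Bmf, -0.11 to 0.13 for Slc38a1, -0.41 to 0.00030 for Gnb1, -0.10 to 0.030 for Gabpb2, -0.19 to 0.094 for Golga1, -0.015 to 0.19 for Lsm14a, -0.21 to 0.061 for Ppp2r2a and -0.13 to 0.60 for Bbc3. Groups of few reads overlapped the other genotype least often, and annotation (Psap) and group ends (Irf2) also set which groups were counted.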
